A study of Oryctolagus cuniculus with 12 samples.

Results

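Untreated hypertrophic scar (HS) was compared with normal ear skin (NS) in the rabbit, beyond the collagen genes: the mixture of cells, the nerves, muscle, fat and vessels of the ear, the secretory pathway and the regulators of development. The samples were chosen by their labels. The 3 samples labelled as hypertrophic scar without treatment and the 3 labelled as normal skin without treatment are 6 of the 12 samples of the series. The other 6, scars treated with drug-loaded MNs or 5-Fu injection, entered the shared estimate of the spread and are not described. All rabbits were wild-type females bought at an age of 10 to 12 weeks, with 3 rabbits in NS and 3 others in HS. In HS rabbits, 4 round wounds of 7 mm in diameter were made on the ventral side of each ear, down through the perichondrium, and new wound tissue was taken off again in the weeks that followed. NS rabbits were not wounded, and neither group was treated. Full thickness ear was taken on day 43 after wounding of the HS rabbits, so each sample held skin of both sides with the cartilage plate between. Whether a sample joined several lesions of a rabbit was not stated, and p-values measure the spread between these samples.

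A hypertrophic scar is a raised scar that stays within the borders of the wound, in which fibroblasts and contractile myofibroblasts lay down an excess of matrix. Healed skin also differs from unwounded skin in what does not grow back in full, such as hair follicles, glands, nerve fibres and the fat and muscle beneath. Secreted matrix is made at the endoplasmic reticulum (ER), folded there by chaperones and sent to the Golgi in coated vesicles.

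The table gives FPKM, the fragments on a gene relative to the gene's length and the size of the library, for 29587 genes. Reads on genes numbered 10521472 to 11248746 in NS and 11586607 to 14043667 in HS, and a gene of 1 kilobase at an FPKM of 1 carried 10.8 to 13.01 reads, so genes near that level have a large counting error. Tests were run with limma on log2(FPKM + 1) over the 13287 genes whose FPKM averaged 1 or more in the 12 samples. A differentially expressed gene (DEG) had a p below 0.05 after Benjamini-Hochberg adjustment together with a change of more than 1 on the log2 scale in either direction. An unadjusted p under 0.05 was reached by 3109 genes. There were 665 DEGs, 5.0% of those tested, with 3.53% higher and 1.48% lower in HS. All HS samples lay above all NS samples in 18% of the tested genes and below them in 15.3%. The 10 genes with the most reads held 8.64% to 10.04% of the reads in NS and 19.8% to 24.3% in HS. The deposited values are scaled so that the median log2 fold change of all tested genes is -0.01, and rescaling to the total of reads moved that median to -0.33. The split of DEGs then went from 469 higher and 196 lower (70.5% higher) to 311 higher and 749 lower (29.3% higher). Changes are therefore relative to the median gene. In bulk tissue, fewer cells of a kind and less RNA per cell cannot be told apart. Sample values are listed in the order of replicates 1, 2 and 3.

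The tissue label was borne out by markers of every layer. The epidermal keratin KRT5 had an FPKM of 611, 533 and 606 in NS and 243, 239 and 207 in HS. COL2A1, the collagen of cartilage, was at 2248, 1012 and 1034 in NS and 247, 612 and 3607 in HS. The endothelial adhesion molecule PECAM1 was at 78.95, 81.01 and 80.7 in NS and 89.3, 66.9 and 76 in HS. Skin, cartilage and vessels were thus all present in each sample, although the amount of cartilage RNA differed widely between the HS samples.

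Genes were grouped in 60 lists of 1638 symbols, of which 1146 were tested, 217 lay below the filter and 275 were not named in the table. Among the listed genes 150 rose and 41 fell as DEGs. The count of each list is to be set beside the 3.53% higher and 1.48% lower among all tested genes. The lists with the lowest medians were those of interferon response, muscle excitation, Schwann cells and smooth muscle, and those with the highest were tendon, myofibroblast, collagen folding and other matrix genes. The vessel lists lay between -0.08 and 0.26. In 14 lists 0 genes were DEGs, both with limma and with limma voom on reads recovered from the FPKM, and the number of their genes with an unadjusted p under 0.05 is given beside each. Rescaling to total reads turned the sign of 13 of the 60 list medians, each of which lay between 0.01 and 0.27 on the deposited scale. Of the 191 listed DEGs 149 were still called after it, 108 of the 150 that rose and 41 of the 41 that fell. The sign turned in 0 of the 191. That was unlikely from the outset, since a DEG differs by more than 1 and the median gene moved only from -0.01 to -0.33.

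**Figure D1:**
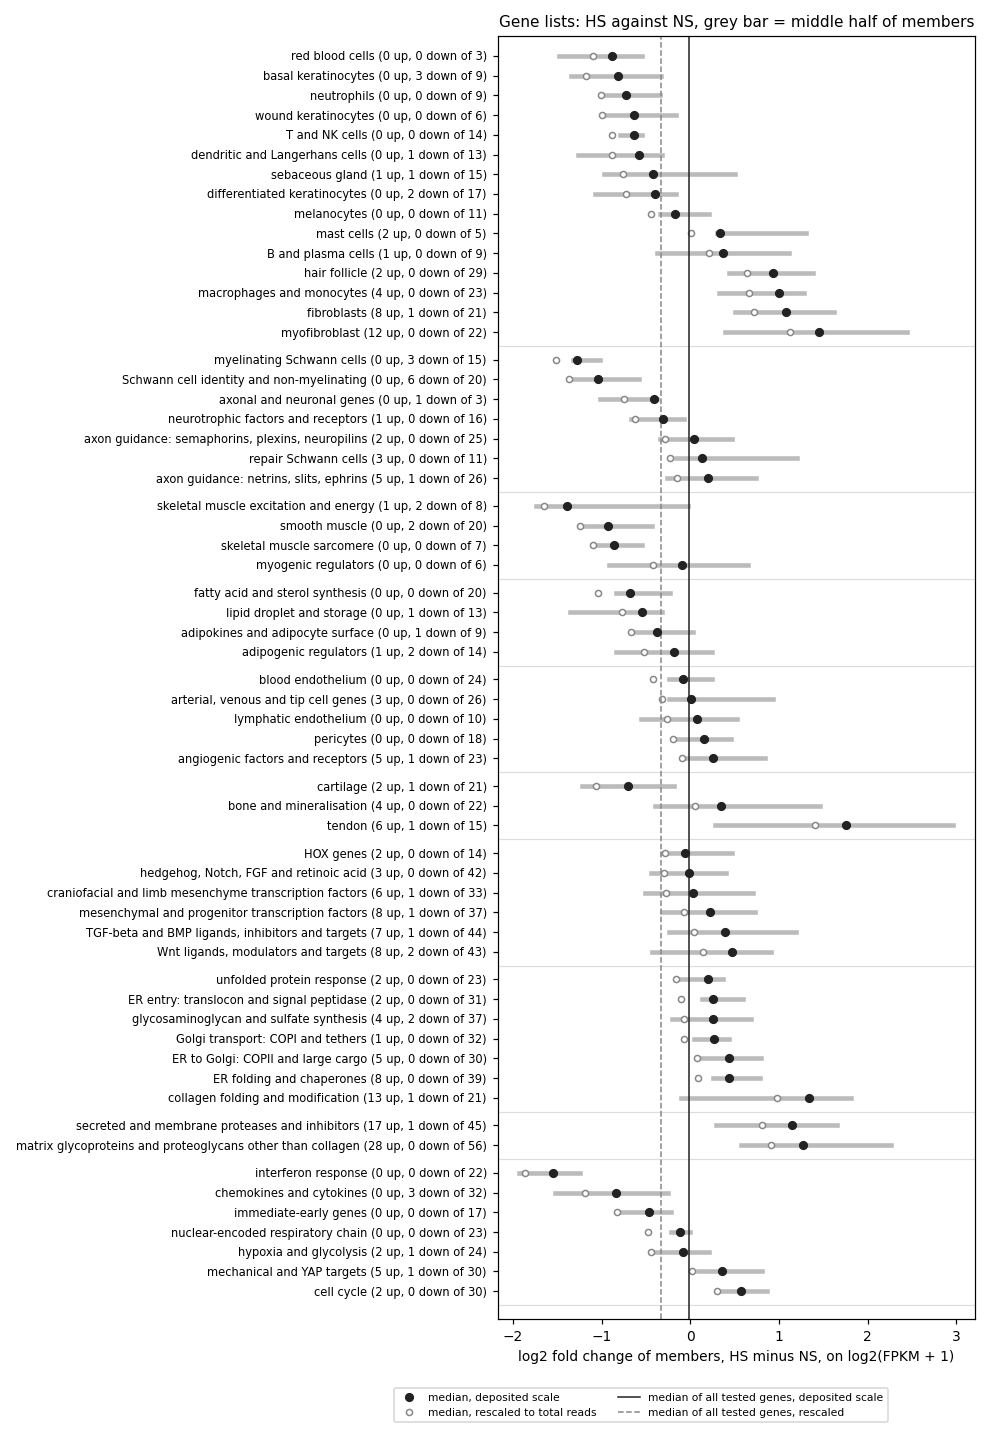
Median log2 fold change (HS minus NS, on log2(FPKM + 1)) of the tested members of each of the 60 lists, as filled points on the deposited scale and open points after rescaling to total reads, with grey bars from the lower to the upper quartile of the members on the deposited scale. Vertical lines mark the median of all tested genes at -0.01 (solid) and -0.33 after rescaling (dashed), and the tendon list lies farthest to the right at 1.76 and the interferon list farthest to the left at -1.55.

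The DEGs with the largest increase were ADAM12, PRSS35, SFRP2, LRRC17, LUM, THBS2, VCAN, COL1A1, COL1A2, MMP13, COL3A1 and TNMD. LUM codes for lumican, a small proteoglycan that binds collagen fibrils, and is listed as ENSOCUG00000005592 on chromosome 4 from 70315437 to 70323221. Its FPKM was 192, 118 and 139 in NS and 3961, 3257 and 2775 in HS (log2 fold change 4.48 with SE 0.53, limma adjusted p = 0.00134). THBS2, a matrix glycoprotein known to restrain vessel growth, was at 36.6, 28.8 and 17.3 in NS and 1179.96, 404 and 416 in HS (log2 fold change 4.42 with SE 0.54, limma adjusted p = 0.00139). LRRC17, a secreted leucine-rich repeat protein, was at 2.61, 1.65 and 1.86 in NS and 200.4, 42.04 and 38.1 in HS (log2 fold change 4.53 with SE 0.67, limma adjusted p = 0.00339). In LRRC17 and THBS2 HS replicate 1 was far above the other HS samples, while LUM differed less among them.

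The DEGs with the largest decrease were PPP1R1B, CCL19, C17orf67, ANGPTL7, PPP1R3C, CRYAB, ITIH6, FZD9, CMTM5, SCIN, C1QL1 and ZBTB16. The calls of CCL19, ITIH6 and FZD9 were lost in 9 of 15 alternatives each, that of PPP1R1B in 8, that of PPP1R3C in 7 and that of CMTM5 in 6, and that of ZBTB16 in 7 of 14. ANGPTL7, a secreted angiopoietin-like protein, is listed as ENSOCUG00000013081 on scaffold GL018927 from 294940 to 299460 and was among the more abundant mRNAs of normal ear, at 1429.9, 1125 and 1157 in NS and 76.5, 107 and 227 in HS (log2 fold change -3.31 with SE 0.45, limma adjusted p = 0.0023). SCIN, an actin-severing protein, was at 64.99, 34.8 and 53.8 in NS and 2.21, 6.51 and 12.1 in HS (log2 fold change -2.89 with SE 0.66, limma adjusted p = 0.0243). C1QL1, a secreted protein of the C1q family, was at 53.2, 26.5 and 32.8 in NS and 2.73, 5.35 and 5.59 in HS (log2 fold change -2.78 with SE 0.54, limma adjusted p = 0.0122). In each the HS samples lay far below the NS samples, and in each HS replicate 1 was the lowest. The call of SCIN was lost without NS replicate 1, NS replicate 3, HS replicate 1 or HS replicate 2. That of C1QL1 was lost without NS replicate 1 or HS replicate 1, and that of ANGPTL7 in 0 of 15 alternatives. Levels of cartilage genes had the same order among the HS samples: the summed FPKM of the 21 tested cartilage genes was 7927, 3690 and 5126 in NS and 634, 1644 and 6483 in HS. Of the 12 DEGs with the largest decrease, 10 ranked the HS samples as the cartilage list did, as against 37.2% of the 196 DEGs lower in HS and 21.1% of all tested genes. This ranking was looked at after the values were seen, and the part of cartilage in these decreases was not tested.

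Nerve. Schwann cells wrap the axons of the skin, and those around thick axons form myelin. Genes of both kinds of Schwann cell were lower in the scar. Of 15 tested myelin genes, 0 rose and 3 fell as DEGs, the median log2 fold change was -1.27 against -0.01 for all genes, and in 14 of 15 all HS samples lay below all NS samples, as against 15.3% of the tested genes. The summed FPKM of the list was 987, 473 and 601 in NS and 236, 339 and 239 in HS.

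MAL, a raft protein of myelin and epithelia, was at 9.42, 20.01 and 2.84 in NS and 0.881, 1.46 and 2.04 in HS (log2 fold change -1.97 with SE 0.53, limma adjusted p = 0.0456), and GJC3, a connexin of myelinating glia, at 6.23, 6.77 and 4.32 in NS and 1.68, 2.23 and 2.46 in HS (log2 fold change -1.11 with SE 0.27, limma adjusted p = 0.0299). Both fell, with every HS value below every NS value. EGR2, the transcription factor of myelination, listed as ENSOCUG00000013672 on chromosome 18 from 23372401 to 23386383, was at 11.8, 6.61 and 8.21 in NS and 2.24, 3.84 and 2.62 in HS. Its groups did not overlap, but the difference did not pass the test (log2 fold change -1.33 with SE 0.43, limma adjusted p = 0.087). The same held for myelin basic protein MBP (-1.05, limma adjusted p = 0.092) and for periaxin, PRX (-1.32, limma adjusted p = 0.134). PMP22, a myelin protein also made by fibroblasts, overlapped between groups (-0.64, limma adjusted p = 0.297). After rescaling to total reads 14 of the 15 myelin genes were called lower. The calls did not outlast the loss of single libraries: 0 myelin genes were DEGs when NS replicate 1, HS replicate 1 or HS replicate 3 was dropped and 1 when HS replicate 2 was, with medians from -1.36 to -0.96 over all samples left out in turn.

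Genes that mark Schwann cells in general followed. Of 20 tested, 0 rose and 6 fell, with a median of -1.04. In 14 of 20 every HS sample lay below every NS sample, as against 15.3% of the tested genes. SOX10, the transcription factor that defines the Schwann lineage and is listed as ENSOCUG00000012067 on scaffold GL018972 from 226966 to 234714, was at 60.1, 28.9 and 30.1 in NS and 10.4, 12.4 and 8.36 in HS (log2 fold change -1.77 with SE 0.34, limma adjusted p = 0.0115). ERBB3, the receptor through which axonal neuregulin keeps Schwann cells alive, was at 20.4, 13.3 and 14.3 in NS and 6.66, 8.78 and 6.596 in HS (log2 fold change -1.02 with SE 0.21, limma adjusted p = 0.0149). L1CAM, an adhesion molecule of unmyelinated fibres, was at 37.1, 22.5 and 27.4 in NS and 14.3, 10.1 and 8.33 in HS (log2 fold change -1.33 with SE 0.29, limma adjusted p = 0.0201). In each of these genes the groups stood apart. GFRA3, the receptor of artemin, fell by 1.06 on the log2 scale (limma adjusted p = 0.0272), and ITGB8, an integrin subunit, fell by 1.41 (limma adjusted p = 0.0061).

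CRYAB completed the 6 genes of this list that fell. It codes for a small heat shock protein and was at 564, 360.5 and 549.9 in NS and 32.9, 65.3 and 70.2 in HS (log2 fold change -3.15 with SE 0.64, limma adjusted p = 0.0144). S100B, a calcium-binding protein of Schwann cells, was at 304, 125 and 200.1 in NS and 22.3, 40.9 and 49.3 in HS (log2 fold change -2.43 with SE 0.78, limma adjusted p = 0.087). Both are also made by chondrocytes, and both were lowest in HS replicate 1, the HS sample with the least cartilage RNA, whose part in these values was not tested. NGFR, the low-affinity neurotrophin receptor, was at 59.5, 31.1 and 43.5 in NS and 18.9, 23.1 and 8.83 in HS (log2 fold change -1.40 with SE 0.39, limma adjusted p = 0.0528), and SCN7A, a sodium channel of non-myelinating Schwann cells, at 11.2, 7.03 and 5.88 in NS and 3.29, 4.103 and 3.75 in HS, a difference that passed the adjusted p but not the size set for a DEG (-0.90, limma adjusted p = 0.0228). SOX10 is shared with melanocytes, whose 11 tested genes had a median of -0.17 and 0 DEGs. Without NS replicate 1 the list held 2 DEGs in place of 6, and without HS replicate 1 or HS replicate 3 it held 3.

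**Figure D2:**
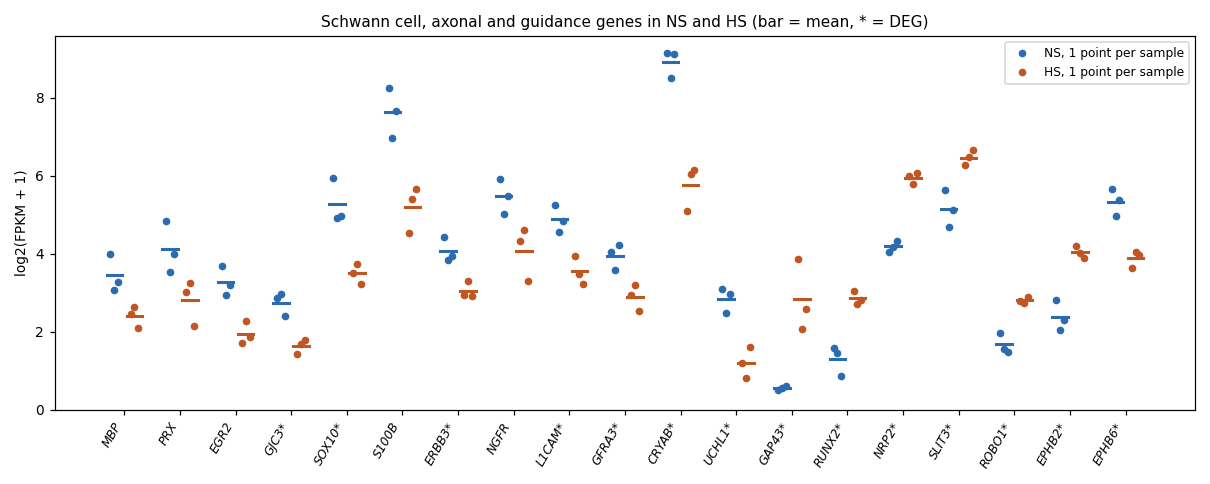
log2(FPKM + 1) of Schwann cell, axonal and guidance genes, with 1 point per sample, NS in blue and HS in orange, a bar at the group mean and a star at DEGs. The Schwann genes from MBP to CRYAB lie lower in HS, while GAP43, RUNX2, NRP2, SLIT3, ROBO1 and EPHB2 lie higher.

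The cell bodies of the ear's sensory neurons lie outside it. Of 16 neurofilament and other axonal genes, 13 were below the filter, with NEFL, NEFM and NEFH at means of 0.13 or less in either group. UCHL1, an abundant ubiquitin hydrolase of neurons, was at 7.47, 4.56 and 6.8 in NS and 1.298, 0.759 and 2.02 in HS (log2 fold change -1.64 with SE 0.38, limma adjusted p = 0.0267). TUBB3, a neuronal tubulin, overlapped between groups (-0.41, limma adjusted p = 0.527). Another list holds genes that Schwann cells take up after injury. Of 11 tested, 3 rose and 0 fell, with a median of 0.13 that turned to -0.23 after rescaling to total reads. Under that rescaling, quantile normalization or voom 2 of them fell, and without NS replicate 1 1 rose. GAP43, a growth cone protein, was at 0.412, 0.463 and 0.513 in NS and 13.6, 3.18 and 4.97 in HS (log2 fold change 2.29 with SE 0.47, limma adjusted p = 0.0162). RUNX2 and TNC, the others that rose, are also in the lists of mesenchymal factors and of myofibroblast genes. Which cells made them was not tested. JUN, which drives the repair state, was at 55.2, 51.3 and 45.99 in NS and 89.6, 45.9 and 41.5 in HS (0.13, limma adjusted p = 0.876), with HS replicate 1 above the rest, and NGFR, listed here too, was lower as given above.

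Nerve growth factors keep axons alive and are made by skin and Schwann cells. Neurotrophin 3, NTF3, was at 3.79, 2.74 and 7.44 in NS and 1.59, 1.62 and 1.61 in HS (-1.03, limma adjusted p = 0.155), lower in all HS samples without passing. PTN, the growth factor pleiotrophin, was the 1 of 16 tested genes that rose, at 24.4, 14.8 and 25.7 in NS and 95.7, 40.98 and 51.8 in HS (log2 fold change 1.44 with SE 0.37, limma adjusted p = 0.0371), a call lost in 9 of 15 alternatives. The list median was -0.30.

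Axon guidance genes, which also steer vessels and fibroblasts, were listed in 2 families. Of 25 semaphorins, plexins and neuropilins, 2 rose and 0 fell, as against 3.53% and 1.48% of all tested genes. The list median was 0.04, near the -0.01 of all genes. NRP2, a co-receptor for class 3 semaphorins and VEGF-C, is listed as ENSOCUG00000007978 on chromosome 7 from 146460006 to 146574055 and was at 15.6, 16.97 and 19.1 in NS and 62.6, 54.3 and 65.8 in HS (log2 fold change 1.76 with SE 0.29, limma adjusted p = 0.00544). SEMA3C, a secreted semaphorin, was at 13.6, 9.59 and 11.2 in NS and 23.7, 35.6 and 32 in HS (log2 fold change 1.33 with SE 0.35, limma adjusted p = 0.0418). The NRP2 groups were narrow and well apart, whereas SEMA3C lost its call in 8 of 15 alternatives. SEMA4B, a membrane semaphorin, was lower in all HS samples by less than the size set for a DEG (-0.89, limma adjusted p = 0.00555).

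Of 26 genes of netrins, slits, ephrins and their receptors, 5 rose and 1 fell. EPHB2, an ephrin receptor kinase, was at 6.02, 3.097 and 3.903 in NS and 17.4, 15.3 and 13.9 in HS (log2 fold change 1.66 with SE 0.27, limma adjusted p = 0.00501), and the kinase-dead receptor EPHB6 moved the other way, at 49.5, 30.2 and 40.3 in NS and 11.4, 15.5 and 14.6 in HS (log2 fold change -1.45 with SE 0.23, limma adjusted p = 0.00463). SLIT3, a secreted repellent, was at 48.4, 24.5 and 33.9 in NS and 75.6, 87.5 and 99.3 in HS (log2 fold change 1.32 with SE 0.29, limma adjusted p = 0.0201), and its receptor ROBO1 at 2.898, 1.95 and 1.804 in NS and 5.91, 5.62 and 6.39 in HS (log2 fold change 1.13 with SE 0.26, limma adjusted p = 0.0259). Ligand and receptor were thus both higher in every HS sample, but the call of ROBO1 was lost in 8 of 14 alternatives and that of SLIT3 in 4 of 15. NTN4, a netrin of basement membranes, rose (1.05, limma adjusted p = 0.0191), as did EPHA3, an ephrin receptor kinase (1.11, limma adjusted p = 0.0405), while SLIT2 overlapped between groups (-0.23, limma adjusted p = 0.549). The count of 5 rises fell to 1 when NS replicate 2 or HS replicate 3 was dropped, to 2 when HS replicate 1 was, to 3 when any other of the 6 samples was and to 1 after rescaling to total reads, where the medians of both guidance lists turned negative, to -0.28 and -0.15.

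Muscle. The ear carries thin strips of skeletal muscle and, in its vessel walls and hair follicles, smooth muscle. Sarcomere mRNA was scarce: 16 of the 23 named sarcomere genes were below the filter, and of the 7 tested 0 were DEGs by limma and 2 had an unadjusted p under 0.05, with a median of -0.86. The skeletal actin ACTA1 was at 5.56, 3.095 and 44.2 in NS and 1.67, 3.97 and 2.21 in HS (-1.61, limma adjusted p = 0.304), with NS replicate 3 far above the rest. MYBPC1, a thick filament protein, was lower in all HS samples, at 12.3, 11.3 and 8.53 in NS and 5.73, 5.19 and 5.22 in HS (-0.86, limma adjusted p = 0.0267), which passed the adjusted p but not the size set for a DEG. Of 8 tested genes of excitation and energy supply, 2 fell and 1 rose. CASQ2, a calcium store protein, was at 5.504, 2.64 and 8.89 in NS and 0.683, 1.82 and 1.203 in HS (log2 fold change -1.49 with SE 0.38, limma adjusted p = 0.0381) and PYGM, muscle glycogen phosphorylase, at 3.27, 3.36 and 9.22 in NS and 1.44, 1.18 and 1.43 in HS (log2 fold change -1.29 with SE 0.34, limma adjusted p = 0.0442), both near the threshold and both lost in 9 of 14 alternatives. PGAM2, a muscle phosphoglycerate mutase, moved the other way, at 7.05, 5.25 and 6.66 in NS and 40.9, 13.1 and 19.2 in HS (log2 fold change 1.65 with SE 0.34, limma adjusted p = 0.0146). Creatine kinase CKM was at 5.02, 3.77 and 23.7 in NS and 0.685, 2.78 and 2.19 in HS (-1.71, limma adjusted p = 0.133). The myogenic factors MYOD1, MYOG and MYF5 were listed at 0 in all 6 samples, and of 6 myogenic regulators that were tested 0 were DEGs by limma and 4 had an unadjusted p under 0.05.

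Smooth muscle genes were dominated by a single library. The summed FPKM of 20 tested genes was 665, 525 and 2874 in NS and 793, 608 and 574 in HS, so NS replicate 3 stood at several times the level of every other sample. The contractile myosin MYH11, listed as ENSOCUG00000013450 on chromosome 6 from 11019065 to 11130994, was at 74.6, 53.6 and 469.6 in NS and 29.2, 53.6 and 45.8 in HS (-1.55, limma adjusted p = 0.184), and the smooth muscle actin ACTG2 at 28.2, 20.7 and 308 in NS and 26.7, 25.3 and 21.4 in HS (-1.19, limma adjusted p = 0.421). In the other samples ACTG2 overlapped between groups, and the lower NS value of MYH11 equalled the highest HS value to 3 digits. The list median of -0.93 became -0.09 without NS replicate 3. As DEGs 2 genes of the list fell, CASQ2, named above, among them. That count became 0 without NS replicate 1, NS replicate 3 or any single HS sample, and 3 without NS replicate 2. It was also 0 with no filter on low values or with the replicate block. DES, the muscle intermediate filament desmin, was lower in every HS sample than in every NS sample, NS replicate 3 or not, at 136, 98.5 and 479 in NS and 41.2, 66.02 and 43.4 in HS (-1.90, limma adjusted p = 0.0602). ACTA2, the actin shared by smooth muscle and myofibroblasts, was at 181, 174 and 806 in NS and 393, 204 and 216 in HS (-0.18, limma adjusted p = 0.877), with the highest value in NS replicate 3.

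**Figure D3:**
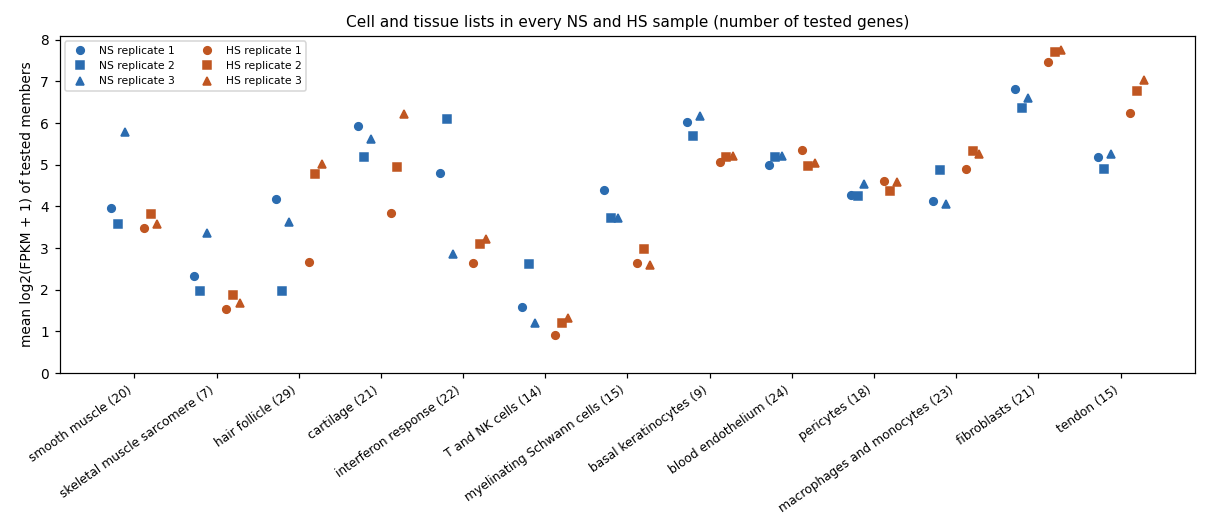
Mean log2(FPKM + 1) over the tested members of 13 lists in each NS (blue) and HS (orange) sample, with the marker shape giving the replicate and the number of genes in brackets. NS replicate 3 stands alone for smooth muscle, the hair follicle list spreads over a wide range within each group, and the cartilage list does so within HS. The basal keratinocyte, myelin, fibroblast and tendon lists separate the groups.

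Fat. Mature adipocytes store lipid in droplets and secrete adipokines. ADIPOQ, adiponectin, was at 236, 252 and 351 in NS and 423, 342 and 446 in HS (0.54, limma adjusted p = 0.231), and FABP4, a fatty acid carrier of adipocytes, at 78.5, 89.5 and 73.1 in NS and 56.6, 59.4 and 90.4 in HS (-0.25, limma adjusted p = 0.732). Neither was lower in HS beyond the spread. Of 13 droplet and storage genes 1 fell and 0 rose (median -0.55). G0S2, an inhibitor of lipolysis, was at 46.1, 53.3 and 81.5 in NS and 13.7, 21.3 and 21.98 in HS (log2 fold change -1.60 with SE 0.35, limma adjusted p = 0.0203). The droplet proteins CIDEA, at 104, 89.2 and 218 in NS and 20.01, 65.5 and 56.9 in HS (-1.56, limma adjusted p = 0.128), and CIDEC, at 7.25, 18.2 and 30.4 in NS and 4.86, 7.81 and 3.84 in HS (-1.44, limma adjusted p = 0.203), did not pass. CIDEA is also a sebaceous gland gene. LIPE, the hormone-sensitive lipase, was lower in all HS samples by less than the size set for a DEG (-0.83, limma adjusted p = 0.0224). Of 9 adipokine and surface genes 1 fell and 0 rose, and 0 fell with any of the 6 samples left out, with no filter on low values, by voom or with the replicate block.

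Among 14 adipogenic regulators, 2 fell and 1 rose. CEBPA, a transcription factor of adipocytes and of differentiating epidermis, was at 43.1, 36.1 and 48.8 in NS and 14.7, 23.05 and 20.6 in HS (log2 fold change -1.11 with SE 0.26, limma adjusted p = 0.0259). ZBTB16, a zinc finger protein induced in early fat differentiation, was at 12.9, 7.87 and 7.12 in NS and 0.204, 0.819 and 0.999 in HS (log2 fold change -2.61 with SE 0.62, limma adjusted p = 0.0274). ZNF423, which commits cells to the fat lineage, rose, at 2.68, 1.98 and 3.19 in NS and 16.3, 5.82 and 6.71 in HS (log2 fold change 1.44 with SE 0.34, limma adjusted p = 0.0274), with HS replicate 1 far above the other HS samples. The call of ZBTB16 was lost in 7 of 14 alternatives and those of CEBPA and ZNF423 in 5 of 15 each, and without NS replicate 1 or HS replicate 1 the list held 0 DEGs by limma. PPARG, the main regulator of fat cells, was lower in all HS samples, at 9.39, 10.7 and 6.41 in NS and 5.73, 5.63 and 5.66 in HS, but did not pass (-0.53, limma adjusted p = 0.219). In fatty acid and sterol synthesis 0 of 20 genes were DEGs by limma and 11 had an unadjusted p under 0.05, with a median of -0.68. SQLE, squalene epoxidase, was lower by less than the size set for a DEG (-0.76, limma adjusted p = 0.0401), at 52.4, 41.8 and 40.8 in NS and 25.1, 23.1 and 30.03 in HS. After rescaling to total reads 10 of these 20 genes were called lower.

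Vessels. Endothelial genes held their level relative to the median gene. Of 24 genes of blood endothelium 0 were DEGs by limma and 6 had an unadjusted p under 0.05, and the median was -0.08. PECAM1, given above, differed by -0.06 on the log2 scale (limma adjusted p = 0.843). TIE1, an endothelial receptor kinase, was at 28.1, 26.1 and 27.9 in NS and 29.8, 23.9 and 24.3 in HS (-0.08, limma adjusted p = 0.851), and the adhesion protein CDH5 at 37.4, 44.4 and 25.9 in NS and 57.1, 28.4 and 35.6 in HS (0.14, limma adjusted p = 0.819). KDR, the main VEGF receptor, was above NS in all HS samples, at 10.2, 14.2 and 14.2 in NS and 28.97, 15.1 and 19.2 in HS, within the test's error (0.64, limma adjusted p = 0.272). MMRN2, a matrix protein of endothelium (-0.73, limma adjusted p = 0.0444), and ROBO4, an endothelial guidance receptor (-0.48, limma adjusted p = 0.0308), were lower in all HS samples by less than the size set for a DEG. Pericytes (18 genes, median 0.15) and lymphatic endothelium (10 genes, median 0.07) had 0 DEGs by limma, and 2 and 4 genes with an unadjusted p under 0.05. RGS5, a pericyte marker, was at 28.01, 23.6 and 138 in NS and 113, 50.2 and 64.7 in HS (0.65, limma adjusted p = 0.536), highest in NS replicate 3. PROX1, the lymphatic regulator, was at 0.923, 0.797 and 1.42 in NS and 2.22, 0.823 and 1.28 in HS (0.23, limma adjusted p = 0.722). Rescaling to total reads took the medians of pericytes and lymphatic endothelium below 0, to -0.19 and -0.26, and that of blood endothelium to -0.42.

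Among 26 genes of arteries, veins and sprouting tips, 3 rose and 0 fell, and the rising ones are matrix genes: the elastic fibre protein FBLN5, at 23.5, 16.2 and 19.1 in NS and 91.4, 92.8 and 78.9 in HS (log2 fold change 2.12 with SE 0.25, limma adjusted p = 0.0013), the laminin chain LAMA4, at 37.9, 30.8 and 36.7 in NS and 83.2, 67.5 and 72.01 in HS (1.06, limma adjusted p = 0.012), and the basement membrane protein NID2, at 32.7, 21.04 and 30.3 in NS and 55.01, 65.3 and 53.6 in HS (1.04, limma adjusted p = 0.0138). They are not restricted to vessels, and 1 of them was a DEG without NS replicate 2 or after rescaling to total reads, when LAMA4 and NID2 were not called. The tip cell markers APLN and ANGPT2 were at 24, 35.8 and 17.5 in NS and 77.9, 45.9 and 43.6 in HS (1.09, limma adjusted p = 0.366) and at 21.5, 18.9 and 36.1 in NS and 20.1, 12.7 and 21.4 in HS (-0.46, limma adjusted p = 0.331). Of 23 angiogenic factors and receptors 5 rose and 1 fell. VEGFA was at 16.5, 13.5 and 9.84 in NS and 10.3, 9.07 and 8.79 in HS (-0.44, limma adjusted p = 0.228). SERPINF1, an inhibitor of vessel growth, was at 252, 152 and 151 in NS and 666, 743 and 739 in HS (log2 fold change 1.99 with SE 0.34, limma adjusted p = 0.00612). HGF, the growth factor of epithelium and endothelium, was at 1.11, 1.05 and 2.05 in NS and 5.26, 5.88 and 5.48 in HS (log2 fold change 1.47 with SE 0.21, limma adjusted p = 0.00268). ANGPTL2, a secreted relative of ANGPTL7, was at 33.3, 21.7 and 48.3 in NS and 373, 246 and 217 in HS (log2 fold change 3.01 with SE 0.35, limma adjusted p = 0.0013), so that the pair of angiopoietin-like genes changed in opposite directions. VASH2, which promotes vessel growth, was at 3.09, 4.49 and 3.14 in NS and 23.1, 10.99 and 11.2 in HS (1.75, limma adjusted p = 0.0061).

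Epidermis and its appendages. Keratinocytes of the basal layer hold the stem cells of the epidermis. Of 9 basal genes 3 fell and 0 rose, and the list median was -0.82. KRT5, given above, fell (log2 fold change -1.34 with SE 0.35, limma adjusted p = 0.042). KRT15, a keratin of basal and follicle stem cells, was at 327, 279.8 and 339 in NS and 114, 104 and 102 in HS (log2 fold change -1.55 with SE 0.35, limma adjusted p = 0.0248), and COL17A1, a hemidesmosomal collagen, at 113, 73.5 and 156 in NS and 51.6, 45.01 and 39.5 in HS (log2 fold change -1.25 with SE 0.32, limma adjusted p = 0.0357). With all 6 samples, every HS value of KRT5, KRT15 and COL17A1 lay below every NS value. The calls of KRT5 and KRT15 were lost with any of the 6 samples left out, and that of COL17A1 without any of them but NS replicate 2. TP63, the regulator of the basal layer, overlapped between groups (-0.53, limma adjusted p = 0.423). Of 17 genes of the upper layers 2 fell: KRT2, a keratin of the upper epidermis, at 1937, 971 and 2683 in NS and 395, 499 and 444 in HS (log2 fold change -1.95 with SE 0.46, limma adjusted p = 0.0268), and TGM3, a transglutaminase of the cornified layer, at 38.7, 28.6 and 56.4 in NS and 12.3, 11.2 and 14.3 in HS (log2 fold change -1.59 with SE 0.33, limma adjusted p = 0.0177). The call of KRT2 was lost in 7 of 15 alternatives and that of TGM3 in 4, and 0 of the list fell without NS replicate 1, NS replicate 3, HS replicate 1 or HS replicate 2. KRT1 overlapped (-0.54, limma adjusted p = 0.504).

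Of 6 genes of wound keratinocytes 0 were DEGs by limma and 0 had an unadjusted p under 0.05. KRT16, induced in activated epidermis, was at 413, 599 and 339.8 in NS and 774, 179 and 279 in HS (-0.37, limma adjusted p = 0.838) and KRT17 at 677, 496 and 524 in NS and 113, 458 and 527 in HS (-0.89, limma adjusted p = 0.414). The alarmins S100A8 and S100A9 ranged over wide values in both groups, with S100A9 at 1639, 3791 and 42.7 in NS and 1802, 36.6 and 269 in HS (-1.30, limma adjusted p = 0.738). NS replicate 2 was above, and NS replicate 1 close to, the highest HS sample.

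Hair keratins ranged widely within each group. KRT71, of the inner root sheath, was at 162, 8.603 and 164 in NS and 21.9, 305 and 454 in HS (1.21, limma adjusted p = 0.591), and KRT85, of the hair shaft, at 39.1, 1.28 and 21.1 in NS and 6.499, 73.4 and 99.8 in HS (1.60, limma adjusted p = 0.417). NS replicate 2 and HS replicate 1 had the lowest values of both. Of 29 tested follicle genes 2 rose, and these were no keratins. LGR5, a Wnt co-receptor of follicle stem cells, was at 1.69, 1.15 and 1.53 in NS and 20.5, 22.3 and 18.7 in HS (log2 fold change 3.13 with SE 0.40, limma adjusted p = 0.00177). CRYM, a thyroid hormone-binding protein, was at 4.25, 4.04 and 2.31 in NS and 47.1, 41.9 and 65.5 in HS (log2 fold change 3.54 with SE 0.48, limma adjusted p = 0.00227). HS replicate 1, with few hair keratins, lay between the other HS samples in LGR5 and CRYM, and neither call was lost in any of 15 alternatives. Without HS replicate 1 the follicle list held 4 DEGs. Sebaceous gland genes (15 tested, median -0.42) had 1 fall, ACSL1, an acyl-CoA synthetase (-1.03, limma adjusted p = 0.0138), and 1 rise, SCD5, a fatty acid desaturase (1.60, limma adjusted p = 0.0413). The call of SCD5 was lost in 7 of 15 alternatives and that of ACSL1 in 4, and after rescaling to total reads 0 of the list rose and 4 fell. MC5R, a melanocortin receptor of the gland, was at 1.12, 4.53 and 2.89 in NS and 0.224, 0.639 and 0.658 in HS (-1.26, limma adjusted p = 0.073). Melanocyte genes showed 0 DEGs of 11 by limma and 2 with an unadjusted p under 0.05, with TYR, tyrosinase, at 2.93, 3.998 and 0.907 in NS and 0.607, 2.34 and 2.71 in HS (-0.30, limma adjusted p = 0.755).

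Fibroblasts. Of 21 fibroblast genes 8 rose and 1 fell, with a median of 1.08. DCN, the proteoglycan decorin, was at 618, 463 and 531 in NS and 1619.6, 1746 and 1578 in HS (log2 fold change 1.62 with SE 0.29, limma adjusted p = 0.00874). FSTL1, a secreted glycoprotein of mesenchyme, was at 114, 88.1 and 107 in NS and 484, 473 and 492 in HS (log2 fold change 2.23 with SE 0.33, limma adjusted p = 0.00334), and CD248, a surface marker of activated stroma, at 13.4, 11.5 and 14.5 in NS and 131, 69.99 and 52.3 in HS (log2 fold change 2.50 with SE 0.37, limma adjusted p = 0.00372). FSTL1 and DCN were close among the HS samples, and CD248 was highest in HS replicate 1. CRABP1, a retinoic acid-binding protein, was at 73.7, 95.5 and 49.2 in NS and 1264, 281 and 291 in HS (log2 fold change 2.72 with SE 0.66, limma adjusted p = 0.0309), again led by HS replicate 1. The gene that fell was GSN, gelsolin, an actin-severing protein, at 6499, 4042 and 4306 in NS and 1155, 1777 and 1848 in HS (log2 fold change -1.63 with SE 0.38, limma adjusted p = 0.0272). DPT, dermatopontin, did not pass (0.89, limma adjusted p = 0.195). The fibroblast count was 5 rises without NS replicate 2, and GSN kept its call without NS replicate 3 and lost it without any of the other 5 samples.

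Of 22 myofibroblast genes 12 rose and 0 fell (median 1.45). ACTA2, the actin that defines the cell, given with the smooth muscle, was not a DEG. Its value in NS replicate 3 lay above all HS samples, and those in NS replicates 1 and 2 lay below them. LRRC15, a surface protein of scar fibroblasts, was at 12.7, 3.42 and 9.66 in NS and 36.9, 45.2 and 41.3 in HS (log2 fold change 2.28 with SE 0.54, limma adjusted p = 0.0268). CDH11, a cadherin of mesenchyme, was at 12.6, 14.2 and 13.5 in NS and 220.4, 97.8 and 101 in HS (log2 fold change 3.18 with SE 0.37, limma adjusted p = 0.0013), and PTK7, a Wnt co-receptor, at 17.6, 14.1 and 16.5 in NS and 157, 72.02 and 76.5 in HS (log2 fold change 2.50 with SE 0.39, limma adjusted p = 0.00445). INHBA, a subunit of activin A, was at 2.37, 2.23 and 3.22 in NS and 12.3, 8.13 and 7.395 in HS (log2 fold change 1.49 with SE 0.32, limma adjusted p = 0.0177). NOX4, an oxidase induced by TGF-beta, was below the filter, at 0.09397, 0.0939 and 0.02601 in NS and 2.06, 1.45 and 1.32 in HS, and was not tested. The count of rises fell to 7 when NS replicate 1 or HS replicate 2 was dropped.

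Immune cells. Macrophage genes had a median of 1.00, and 4 of 23 rose. TREM2, a lipid receptor of tissue macrophages, was at 1.24, 1.69 and 2.702 in NS and 14.04, 23.98 and 14.9 in HS (log2 fold change 2.69 with SE 0.36, limma adjusted p = 0.00212) and kept its call in 15 of 15 alternatives. VSIG4, a complement receptor, was at 3.13, 2.26 and 5.64 in NS and 9.404, 14.2 and 12.6 in HS (log2 fold change 1.53 with SE 0.37, limma adjusted p = 0.0289), and CX3CR1, the fractalkine receptor, at 0.647, 0.861 and 0.477 in NS and 3.54, 3.204 and 1.904 in HS (log2 fold change 1.21 with SE 0.32, limma adjusted p = 0.044). CTSK, cathepsin K, which fibroblasts and osteoclasts make too, also rose (1.65, limma adjusted p = 0.0156). The general marker CD68 overlapped, at 28.3, 73.4 and 22.6 in NS and 45.3, 51.1 and 46.1 in HS (0.38, limma adjusted p = 0.59), with its highest value in NS replicate 2. The mannose receptor MRC1 was higher in all HS samples, at 3.15, 7.78 and 3.26 in NS and 13.6, 15.8 and 19.6 in HS, just outside the threshold (1.68, limma adjusted p = 0.0529). The count of 4 fell to 1 when NS replicate 1 or HS replicate 2 was dropped and to 2 when HS replicate 3 was.

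Of 5 mast cell genes 2 rose and 0 fell. CMA1, mast cell chymase, was at 1.86, 1.39 and 0.642 in NS and 18.6, 7.696 and 18.3 in HS (log2 fold change 2.73 with SE 0.47, limma adjusted p = 0.00639), and MS4A2, a chain of the IgE receptor, at 1.53, 1.798 and 0.738 in NS and 6.98, 3.74 and 3.89 in HS (log2 fold change 1.30 with SE 0.29, limma adjusted p = 0.0227). The call of MS4A2 was lost without NS replicate 1, NS replicate 3 or HS replicate 1, which left 1 DEG. KIT, the receptor of stem cell factor, was at 6.51, 5.31 and 5.098 in NS and 7.197, 6.63 and 7.71 in HS (0.30, limma adjusted p = 0.279). CPA3, mast cell carboxypeptidase, was listed at 0 in all 6 samples. Lymphocytes showed 0 DEGs of 14 T and NK cell genes by limma and 1 with an unadjusted p under 0.05 (median -0.63). The T cell receptor chain CD3E was at 4.23, 9.598 and 1.41 in NS and 0.582, 1.31 and 2.05 in HS (-1.19, limma adjusted p = 0.358), highest in NS replicate 2. In B and plasma cells CR2, a complement receptor that follicular dendritic cells carry as well, was at 0.0706, 0.094 and 0.0521 in NS and 79.6, 6.11 and 6.31 in HS (log2 fold change 3.91 with SE 0.78, limma adjusted p = 0.0137), with HS replicate 1 far above the rest, while the antibody joining chain JCHAIN, at 3.95, 26.8 and 8.39 in NS and 37.9, 85.7 and 87.97 in HS, was higher in all HS samples without passing (2.62, limma adjusted p = 0.172). The B cell gene MS4A1 was below the filter. Neutrophil genes (9 tested) held 0 DEGs by limma and 1 with an unadjusted p under 0.05, and red blood cell genes (3 tested) 0 and 2.

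Langerhans cells, the dendritic cells of epidermis, are marked by CD207, which was at 9.45, 6.45 and 9.88 in NS and 1.39, 3.77 and 4.37 in HS (-1.26, limma adjusted p = 0.101), lower in all HS samples. CCL19, a chemokine that guides dendritic cells to lymph nodes, was at 67.2, 192 and 10.3 in NS and 0.296, 6.18 and 2.998 in HS (log2 fold change -3.99 with SE 1.00, limma adjusted p = 0.0348), a call lost in 9 of 15 alternatives. Of 32 chemokines and cytokines, CCL19 among them, 3 fell and 0 rose, and 6 fell without NS replicate 3. CCL20, which draws Langerhans cell precursors, was at 37.01, 20.3 and 21.1 in NS and 3.18, 2.42 and 5.61 in HS (log2 fold change -2.52 with SE 0.42, limma adjusted p = 0.00598), and CX3CL1, fractalkine, at 13.9, 15.6 and 21.03 in NS and 3.65, 6.05 and 6.76 in HS (log2 fold change -1.47 with SE 0.27, limma adjusted p = 0.00884). Both calls held in 15 of 15 alternatives. The call of its receptor CX3CR1, higher in HS, was lost in 9 of 14 alternatives, with any of the 6 samples left out among them. The interferon-induced CXCL10 was at 274, 699 and 24.6 in NS and 1.67, 11.7 and 13.4 in HS (-4.43, limma adjusted p = 0.0668), high in NS replicates 1 and 2. The 22 interferon genes behaved likewise, with a median of -1.55 and 0 DEGs by limma, although 14 had an unadjusted p under 0.05, and with NS replicate 3 left out 18 of them were DEGs lower in HS.

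Secretion. Collagen is hydroxylated and folded in the ER before it leaves in enlarged carriers. Along this route the list median was highest for the steps that act on collagen. Of 21 genes of collagen folding and modification 13 rose and 1 fell (median 1.33). P4HA3, a subunit of prolyl 4-hydroxylase, was at 8.9, 5.32 and 5.51 in NS and 68.2, 80.1 and 66.8 in HS (log2 fold change 3.29 with SE 0.32, limma adjusted p = 0.000748). P3H1, which 3-hydroxylates proline, was at 35.7, 32.2 and 34.2 in NS and 113, 89.7 and 90.5 in HS (log2 fold change 1.49 with SE 0.23, limma adjusted p = 0.00445), and its relative P3H2 fell, at 57.9, 40.7 and 45.8 in NS and 21.96, 14.9 and 27.5 in HS (log2 fold change -1.16 with SE 0.23, limma adjusted p = 0.0133). PCOLCE, an enhancer of procollagen trimming, was at 108, 79.1 and 62.6 in NS and 584, 531 and 535 in HS (log2 fold change 2.74 with SE 0.34, limma adjusted p = 0.00152). The lysyl oxidase LOXL1, which crosslinks elastin and collagen, rose by 2.71 (limma adjusted p = 0.000965), whereas PLOD2, the lysyl hydroxylase of collagen telopeptides, overlapped, at 30.7, 16.3 and 23.3 in NS and 13.98, 11.3 and 29.3 in HS (-0.42, limma adjusted p = 0.631). With each sample left out in turn 11 to 13 of these genes rose.

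Among 39 general folding genes 8 rose and 0 fell, with a median of 0.44, and 22 of 39 had all HS samples above all NS samples, as against 18% of the tested genes. The prolyl isomerase FKBP10, a collagen chaperone, was at 135, 74.8 and 131 in NS and 584, 545 and 582 in HS (log2 fold change 2.36 with SE 0.34, limma adjusted p = 0.00293). TXNDC5, a disulphide isomerase, was at 78.3, 65.03 and 70.8 in NS and 256, 218 and 218 in HS (log2 fold change 1.68 with SE 0.18, limma adjusted p = 0.00104). LMAN1, the cargo receptor of the ER exit sites, was at 20.5, 17.3 and 16.3 in NS and 59.6, 45.1 and 46.2 in HS (log2 fold change 1.42 with SE 0.25, limma adjusted p = 0.00733). The classical stress chaperones did not follow: HSPA5, known as BiP, was at 288, 321 and 261 in NS and 287, 395 and 357 in HS (0.25, limma adjusted p = 0.613), and DNAJB11, its partner, at 58.7, 66.4 and 51.8 in NS and 59.98, 65.97 and 61.9 in HS (0.09, limma adjusted p = 0.786). Calreticulin, CALR, which nearly all cells use, was listed at or near 0 in all 6 samples and cannot be read. The count of rises without NS replicate 3 or without HS replicate 1 was 5.

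In the unfolded protein response list 2 of 23 rose. CREB3L1, a membrane-bound transcription factor that turns on collagen secretion, was at 29.7, 24.3 and 24.6 in NS and 148, 133 and 130 in HS (log2 fold change 2.35 with SE 0.44, limma adjusted p = 0.0102), and SEL1L, of the ER degradation machinery, at 11.4, 9.82 and 10.5 in NS and 29, 25.6 and 24.5 in HS (log2 fold change 1.24 with SE 0.22, limma adjusted p = 0.00855). DDIT3, known as CHOP and induced by prolonged stress, was lower in every HS sample, at 38.1, 46.6 and 46.2 in NS and 26.03, 34.5 and 29.4 in HS, under the size set for a DEG (-0.53, limma adjusted p = 0.0382), and HERPUD1 overlapped (-0.30, limma adjusted p = 0.445).

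At ER entry 2 of 31 rose, TRAM2, a translocation factor for collagen I, at 8.09, 7.98 and 6.21 in NS and 21.04, 17.1 and 19.8 in HS (log2 fold change 1.27 with SE 0.31, limma adjusted p = 0.0324), and TUSC3, of the oligosaccharyltransferase, at 5.42, 4.48 and 4.87 in NS and 13.6, 12.7 and 16.9 in HS (log2 fold change 1.37 with SE 0.20, limma adjusted p = 0.00333). SEC61A1, the channel itself, was at 102, 109 and 98.4 in NS and 171, 176 and 179.7 in HS, higher in all HS samples by less than the size set for a DEG (0.76, limma adjusted p = 0.0196). Small shifts of this kind were common, with 20 of 31 genes above NS in all HS samples, as against 18% of the tested genes. The median of 0.26, however, turned to -0.10 after rescaling to total reads. The 2 calls are to be set beside 3.53% of all tested genes called higher, and that of TRAM2 was lost in 8 of 15 alternatives.

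For export in COPII vesicles 5 of 30 rose and 0 fell (median 0.43). SEC23A, of the inner coat, is listed as ENSOCUG00000009925 on chromosome 17 from 58640344 to 58705851 and was at 13.6, 10.1 and 13.1 in NS and 39.8, 23.3 and 29.6 in HS (log2 fold change 1.24 with SE 0.23, limma adjusted p = 0.0104). Its partner SEC24D was at 27.7, 27.1 and 30.7 in NS and 60.5, 70.04 and 61.9 in HS (log2 fold change 1.14 with SE 0.29, limma adjusted p = 0.0352). KDELR3, a receptor that returns ER proteins, was at 68.3, 52.3 and 60.6 in NS and 198, 186 and 203 in HS (log2 fold change 1.69 with SE 0.24, limma adjusted p = 0.00293). All HS values lay above all NS values in each. After rescaling to total reads 2 of the list rose, with a median of 0.08, and neither SEC23A nor SEC24D was called. The call of SEC24D was lost in 8 of 15 alternatives. The large cargo receptor MIA3, known as TANGO1, was higher in all HS samples by 0.40 without passing (limma adjusted p = 0.136). In COPI transport 1 of 32 rose, COPZ2, a coat subunit, at 4.82, 3.72 and 6.46 in NS and 12.3, 11.3 and 10.7 in HS (log2 fold change 1.07 with SE 0.20, limma adjusted p = 0.0109), and the list median went from 0.27 to -0.07 under that rescaling. COPZ2 was not called after it, nor without NS replicate 2. The count of 1 of 32 is to be set beside 3.53% of all tested genes called higher. Without NS replicate 1, NS replicate 2 or HS replicate 1 the COPII list held 3 DEGs.

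**Figure D4:**
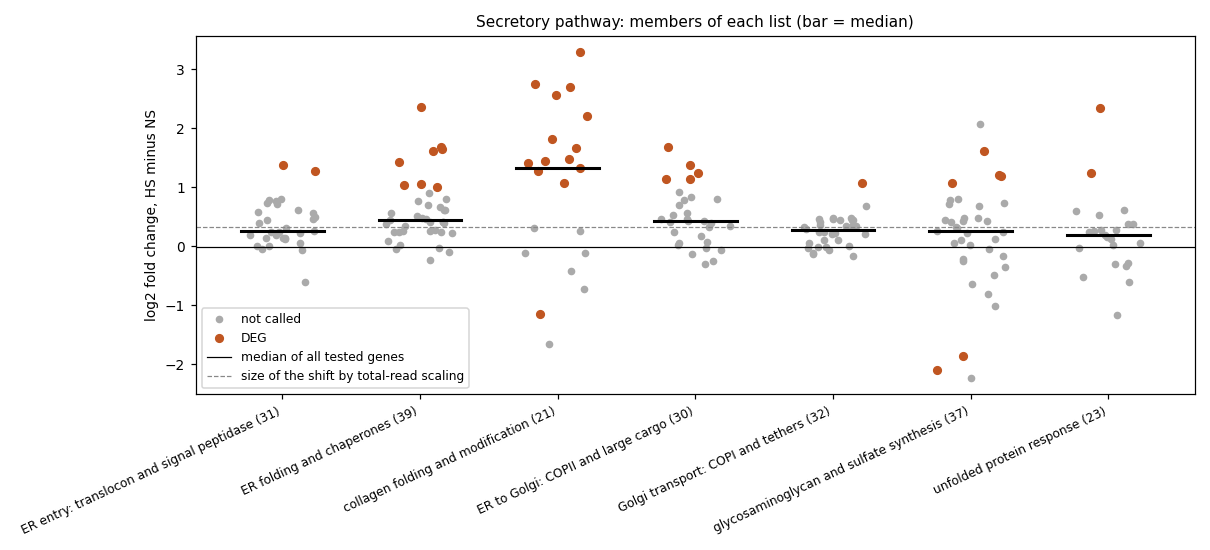
log2 fold change (HS minus NS) of each tested member of 7 secretory lists, DEGs in orange and other genes in grey, with a black bar at the list median and the number of genes in brackets. The collagen folding list has a median of 1.33, the medians of the other lists lie between 0.19 and 0.44, and the dashed line marks the amount by which rescaling to total reads lowered the median gene.

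Glycosaminoglycan enzymes build and sulfate the chains of proteoglycans, and 4 rose and 2 fell. CHSY3, a chondroitin synthase, rose, at 4.06, 2.98 and 2.81 in NS and 18.9, 8.598 and 10.6 in HS (log2 fold change 1.62 with SE 0.28, limma adjusted p = 0.00698), as did CHST14, which sulfates dermatan (1.08, limma adjusted p = 0.00555), DSEL, a dermatan sulfate epimerase-like protein (1.20, limma adjusted p = 0.0331), and SULF1, which trims heparan sulfate (1.22, limma adjusted p = 0.0381). CHST3, which sulfates the chondroitin of cartilage, fell, at 78.4, 36.6 and 31.2 in NS and 8.19, 11.5 and 16.5 in HS (log2 fold change -1.86 with SE 0.39, limma adjusted p = 0.0181), as did HS3ST3B1, a heparan sulfotransferase (-2.10, limma adjusted p = 0.0254). The decreases were both lost without NS replicate 1, HS replicate 1 or HS replicate 2, and 2 of the increases stayed without NS replicate 1. The list of 37 had a median of 0.26, and -0.07 after rescaling to total reads, when CHST14, DSEL and SULF1 were not called.

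Developmental regulators. Transcription factors pattern the mesenchyme of face and limb. TLX1, a homeobox gene, is listed as ENSOCUG00000013136 on chromosome 18 from 49216354 to 49221362 and was at 25.1, 21.9 and 24.3 in NS and 7.36, 6.32 and 6.17 in HS (log2 fold change -1.70 with SE 0.15, limma adjusted p = 0.000658). It was the 1 of 33 genes of this list that fell. Of the 6 that rose, PRRX2, a paired-type homeobox gene of fetal mesenchyme listed as ENSOCUG00000001724 on scaffold GL018933 from 374316 to 376708, was at 16.5, 13.4 and 19.98 in NS and 118, 61.7 and 50.1 in HS (log2 fold change 2.06 with SE 0.29, limma adjusted p = 0.00287). Its relative PRRX1 was at 68.5, 54.6 and 65.8 in NS and 129, 125 and 148 in HS (log2 fold change 1.08 with SE 0.21, limma adjusted p = 0.0122). EYA2, a transcriptional co-activator, was at 1.25, 0.646 and 1.51 in NS and 17.6, 6.71 and 7.45 in HS (log2 fold change 2.34 with SE 0.35, limma adjusted p = 0.00379), and TWIST2, a basic helix-loop-helix factor of dermis, at 16.4, 7.16 and 9.35 in NS and 47.7, 39.9 and 25.2 in HS (log2 fold change 1.72 with SE 0.38, limma adjusted p = 0.0214). OSR2, a zinc finger factor of limb and palate, rose by 1.24 (limma adjusted p = 0.0127) and FOXP1 by 1.12 (limma adjusted p = 0.0249). The list median was 0.03, at the level of all genes, and after rescaling to total reads 3 genes were called higher and 6 lower. The count of rises was 3 without NS replicate 2 and without HS replicate 2.

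HOX genes keep the memory of body position. Of 44 listed with their MEIS and PBX partners 24 were below the filter, and of 14 tested genes 2 rose and 0 fell. MEIS1, a partner that rose, was at 7.64, 6.96 and 8.41 in NS and 32.05, 14.5 and 15.3 in HS (log2 fold change 1.23 with SE 0.31, limma adjusted p = 0.0383), and its call was lost in 9 of 15 alternatives. HOXD9 was lower in all HS samples without passing, at 28.9, 25.02 and 26.2 in NS and 18.1, 15.8 and 13.7 in HS (-0.72, limma adjusted p = 0.0927).

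Of 37 other mesenchymal and progenitor factors 8 rose and 1 fell. LEF1, the nuclear partner of beta-catenin, was at 4.902, 2.89 and 4.62 in NS and 13.5, 13.97 and 18.9 in HS (log2 fold change 1.69 with SE 0.23, limma adjusted p = 0.00212). RUNX2, the master factor of bone, was at 1.97, 1.72 and 0.818 in NS and 7.29, 5.52 and 5.95 in HS (log2 fold change 1.56 with SE 0.25, limma adjusted p = 0.0052), and its relative RUNX1 at 10.5, 10.8 and 15.5 in NS and 35.2, 24.1 and 31.5 in HS (1.24, limma adjusted p = 0.0365). NFATC4, a calcium-regulated factor, was at 14.7, 12.2 and 12.7 in NS and 31.3, 32.5 and 30.1 in HS (log2 fold change 1.19 with SE 0.15, limma adjusted p = 0.00188). KLF5, a factor of proliferating epithelium, fell, at 60.6, 43.2 and 55.3 in NS and 18.9, 21.7 and 20.6 in HS (log2 fold change -1.32 with SE 0.25, limma adjusted p = 0.0101). SNAI1 and SNAI2, which drive epithelial to mesenchymal transition, overlapped (0.73, limma adjusted p = 0.447, and 0.47, limma adjusted p = 0.288). The call of RUNX1 was lost in 8 of 15 alternatives. The count of rises was 5 without NS replicate 1, HS replicate 1 or HS replicate 3. After rescaling the number of rises was 4 and the median turned from 0.22 to -0.08.

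**Figure D5:**
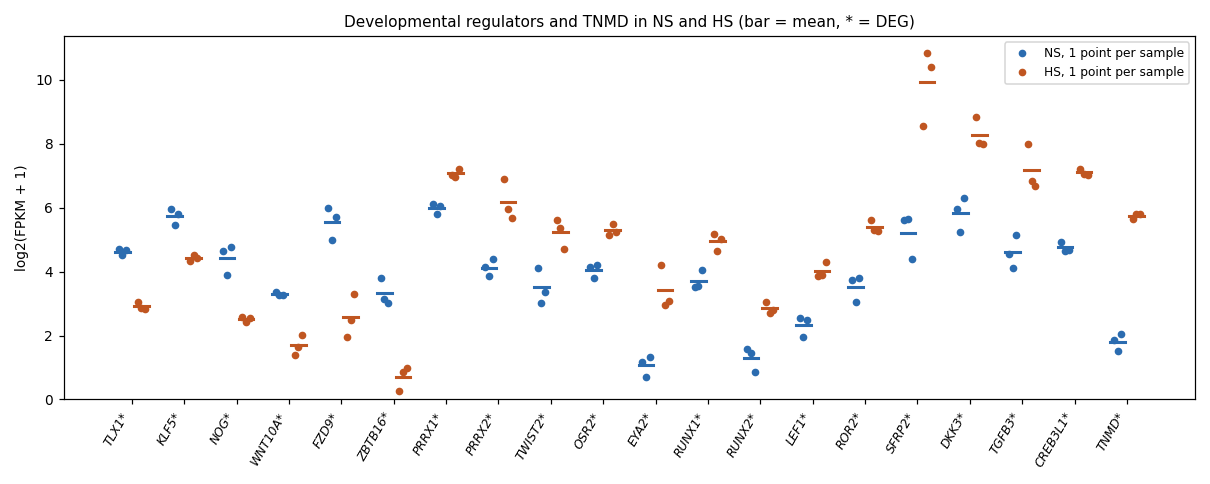
log2(FPKM + 1) of 19 developmental regulators and of TNMD, with 1 point per sample, NS in blue and HS in orange, a bar at the group mean and a star at DEGs. TLX1, KLF5, NOG, WNT10A, FZD9 and ZBTB16 lie lower in all HS samples, and the others lie higher in all HS samples.

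Signalling. In the Wnt pathway 8 of 43 rose and 2 fell. Among ligands, WNT10A, made by epidermis and follicle, was at 9.35, 8.71 and 8.59 in NS and 1.64, 2.14 and 3.06 in HS (log2 fold change -1.61 with SE 0.22, limma adjusted p = 0.00263), and WNT16 moved the other way, at 1.86, 1.31 and 0.804 in NS and 3.44, 5.91 and 13.2 in HS (log2 fold change 1.73 with SE 0.43, limma adjusted p = 0.033). WNT5A was highest in HS replicate 1, at 4.91, 7.597 and 3.43 in NS and 49.9, 9.24 and 12.5 in HS (1.65, limma adjusted p = 0.111). Among receptors, ROR2, which binds WNT5A, was at 12.4, 7.36 and 12.8 in NS and 48.1, 38.7 and 37.2 in HS (log2 fold change 1.86 with SE 0.30, limma adjusted p = 0.00518), and the Frizzled FZD9 at 62.3, 30.5 and 50.9 in NS and 2.92, 4.65 and 8.87 in HS (log2 fold change -2.96 with SE 0.79, limma adjusted p = 0.0452), a fall lost in 9 of 15 alternatives. Of the secreted inhibitors, SFRP2 was at 47.9, 48.7 and 20.2 in NS and 375, 1829 and 1360.03 in HS (log2 fold change 4.72 with SE 0.54, limma adjusted p = 0.00129) and DKK3 at 61.02, 36.6 and 77.5 in NS and 451, 262 and 251 in HS (log2 fold change 2.45 with SE 0.36, limma adjusted p = 0.00339). HS replicate 1 was the lowest HS sample for SFRP2 and the highest for DKK3. AXIN2, a feedback target of the canonical pathway, was at 4.96, 4.93 and 5.696 in NS and 8.44, 8.62 and 5.94 in HS (0.47, limma adjusted p = 0.251). Of the Wnt genes 4 rose without NS replicate 2, and 5 without NS replicate 1 or HS replicate 3.

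In the TGF-beta family 7 of 44 rose and 1 fell. The ligand TGFB3 was at 22.6, 16.4 and 34.7 in NS and 255, 113 and 101 in HS (log2 fold change 2.55 with SE 0.38, limma adjusted p = 0.00339), and TGFB2 at 10.04, 5.31 and 7.52 in NS and 28.99, 16.03 and 11.4 in HS (1.14, limma adjusted p = 0.0892). LTBP1, which stores latent TGF-beta in the matrix, was at 17.2, 15.7 and 25.1 in NS and 49.1, 57.01 and 67.3 in HS (log2 fold change 1.55 with SE 0.29, limma adjusted p = 0.0104). TGFBI, a target, rose by 1.64 (limma adjusted p = 0.00501). Of the BMP inhibitors, noggin, NOG, fell, at 24.1, 13.96 and 26.1 in NS and 5.03, 4.41 and 4.902 in HS (log2 fold change -1.91 with SE 0.33, limma adjusted p = 0.00733), and gremlin 1, GREM1, was lower in all HS samples without passing, at 293, 106 and 100.01 in NS and 40.8, 27.5 and 47.6 in HS (-1.93, limma adjusted p = 0.157). Of 42 genes of hedgehog, Notch, FGF and retinoic acid signalling 3 rose: FGF7, the keratinocyte growth factor made by fibroblasts, at 2.603, 3.93 and 3.94 in NS and 8.56, 12.99 and 11.98 in HS (log2 fold change 1.44 with SE 0.29, limma adjusted p = 0.0137), ALDH1A2, which makes retinoic acid, at 4.74, 7.18 and 5.98 in NS and 21.4, 16.2 and 14.2 in HS (log2 fold change 1.39 with SE 0.31, limma adjusted p = 0.0236), and CRABP1, given above. The hedgehog targets PTCH1 and GLI1 overlapped (-0.11, limma adjusted p = 0.848, and 0.21, limma adjusted p = 0.786). Of these 42 genes 0 were DEGs without NS replicate 1, and 1 was without HS replicate 1 or HS replicate 2.

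Cartilage, bone and tendon. The cartilage genes of the HS samples ranged from far below to above those of NS. COL10A1, a collagen of mature chondrocytes, was at 3734, 1703 and 2063 in NS and 14.8, 293 and 841 in HS (-3.91, limma adjusted p = 0.14), and HAPLN1, a link protein, at 233, 116 and 147 in NS and 25.6, 41.5 and 213 in HS (-1.35, limma adjusted p = 0.337). HS replicate 1 was the lowest for both and HS replicate 3 the highest of HS. SOX6, a partner of SOX9, fell, at 5.02, 2.75 and 1.85 in NS and 0.372, 0.559 and 1.36 in HS (log2 fold change -1.22 with SE 0.32, limma adjusted p = 0.041), while MATN4 and EPYC, matrix proteins, rose, at 5.04, 4.56 and 1.23 in NS and 21.9, 13.3 and 26.7 in HS (log2 fold change 2.31 with SE 0.46, limma adjusted p = 0.014) and at 1.51, 2.205 and 4.77 in NS and 9.85, 86.01 and 46.9 in HS (log2 fold change 3.31 with SE 0.71, limma adjusted p = 0.0186). Of 21 cartilage genes these were the DEGs. The call of SOX6 was lost in 7 of 14 alternatives, that of EPYC in 5 of 15 and that of MATN4 without HS replicate 1 or HS replicate 3. Without HS replicate 3 0 of the list rose and 2 fell. SOX9 was lower in all HS samples without passing (-0.92, limma adjusted p = 0.258).

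Tendon genes gave the highest median of all lists, 1.76 (6 of 15 rose, 1 fell). TNMD, tenomodulin, a membrane glycoprotein of tendon cells listed as ENSOCUG00000011179 on chromosome X from 88777685 to 88794051, was at 2.67, 1.89 and 3.099 in NS and 49.03, 55.3 and 54.4 in HS (log2 fold change 3.94 with SE 0.77, limma adjusted p = 0.0127). KERA, the proteoglycan keratocan of cornea and tendon, was at 23.3, 17.8 and 14.7 in NS and 61.2, 157 and 128 in HS (log2 fold change 2.49 with SE 0.44, limma adjusted p = 0.00733). The values of TNMD were close together in HS and its call held in 15 of 15 alternatives. ASPN, asporin, at 13.4, 10.3 and 13.9 in NS and 189, 182 and 213 in HS (log2 fold change 3.86 with SE 0.37, limma adjusted p = 0.000748), and COL12A1, a collagen of dense connective tissue, at 33.7, 36.6 and 28.3 in NS and 199, 160.3 and 234 in HS (log2 fold change 2.54 with SE 0.24, limma adjusted p = 0.000748), are shared with scar fibroblasts. The tendon transcription factor MKX overlapped (0.44, limma adjusted p = 0.538), and FMOD, fibromodulin, was lowest in HS replicate 1, at 149, 113 and 120.5 in NS and 94.5, 290.3 and 434 in HS (0.85, limma adjusted p = 0.319). ANGPTL7, listed with tendon, fell as given above. Bone genes included 4 DEGs of 22, RUNX2, CREB3L1, FKBP10 and MMP13. Bone sialoprotein IBSP was high in HS replicate 1 alone, at 0.831, 1.25 and 1.23 in NS and 87.1, 0.317 and 2.86 in HS (1.87, limma adjusted p = 0.435), and alkaline phosphatase ALPL was likewise highest there, at 1.52, 0.664 and 0.499 in NS and 13.4, 3.31 and 3.04 in HS (1.77, limma adjusted p = 0.0584). Osteocalcin, BGLAP, was lower in all HS samples, at 266, 114 and 442 in NS and 70.9, 78.4 and 81.9 in HS (-1.62, limma adjusted p = 0.115).

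Matrix turnover. Outside the collagens, 28 of 56 matrix glycoproteins and proteoglycans rose and 0 fell. SPON1, F-spondin, first known from the floor plate of the neural tube, was at 7.88, 6.71 and 5.47 in NS and 126, 90.7 and 78.5 in HS (log2 fold change 3.67 with SE 0.32, limma adjusted p = 0.000658). IGFBP4, which binds insulin-like growth factors, was at 274, 218 and 263 in NS and 1693, 1271 and 1278 in HS (log2 fold change 2.48 with SE 0.25, limma adjusted p = 0.000842). CCN4, a matricellular target of Wnt signalling, was at 3.83, 2.67 and 3.11 in NS and 22.1, 20.6 and 27.1 in HS (log2 fold change 2.53 with SE 0.47, limma adjusted p = 0.00947), and the large proteoglycan VCAN at 3.02, 13.4 and 3.79 in NS and 244, 92 and 113 in HS (log2 fold change 4.39 with SE 0.92, limma adjusted p = 0.0167). FN1, fibronectin, overlapped, at 519, 299 and 430.2 in NS and 415, 687 and 823 in HS (0.60, limma adjusted p = 0.26).

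Of 45 proteases and inhibitors 17 rose and 1 fell. MMP2, a gelatinase, was at 148, 95.5 and 108 in NS and 1020.1, 1118 and 1074 in HS (log2 fold change 3.21 with SE 0.31, limma adjusted p = 0.000748), while MMP9, the other gelatinase, overlapped, at 12.3, 26.4 and 3.92 in NS and 21.8, 9.51 and 19.7 in HS (0.49, limma adjusted p = 0.694). ADAM12, a membrane metalloprotease of the scar, was at 0.567, 0.311 and 1.57 in NS and 79.04, 49.9 and 53.9 in HS (log2 fold change 5.12 with SE 0.60, limma adjusted p = 0.0013). ADAMTS5, which cleaves aggrecan and versican, was at 3.03, 3.29 and 2.34 in NS and 12.6, 12.8 and 10.6 in HS (log2 fold change 1.75 with SE 0.26, limma adjusted p = 0.00379). The collagenase MMP1 overlapped (0.21, limma adjusted p = 0.861) and MMP13 rose, at 0.772, 1.49 and 0.745 in NS and 41.7, 18.5 and 38.1 in HS (log2 fold change 4.01 with SE 0.79, limma adjusted p = 0.0128). SERPINE2, an inhibitor of thrombin, was the gene that fell, at 276, 145 and 163 in NS and 33.96, 41.9 and 82.04 in HS (log2 fold change -1.91 with SE 0.49, limma adjusted p = 0.0385).

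State of the tissue. Of 30 proliferation genes 2 rose and 0 fell, and the median was 0.58. In 17 of 30 all HS samples lay above NS, as against 18% of the tested genes. With 1 sample left out at a time the count of rises went from 0 to 3. CCNB2, a mitotic cyclin, was at 4.81, 6.404 and 6.18 in NS and 13.6, 20.2 and 17.7 in HS (log2 fold change 1.41 with SE 0.35, limma adjusted p = 0.034), and MKI67, of dividing cells, at 3.38, 5.28 and 2.74 in NS and 5.65, 9.18 and 8.75 in HS (0.89, limma adjusted p = 0.125). The call of CCNB2 was lost in 8 of 15 alternatives and that of TOP2A, a topoisomerase of dividing cells and the other that rose, in 9 of 14. In the hypoxia list HIF1A, the oxygen-regulated factor, was at 57.6, 80.8 and 98.7 in NS and 257, 247 and 272 in HS (log2 fold change 1.73 with SE 0.42, limma adjusted p = 0.0322), and the glucose carrier SLC2A1, a target of it, fell, at 89.4, 53.8 and 51.8 in NS and 22.7, 23.8 and 24 in HS (log2 fold change -1.38 with SE 0.28, limma adjusted p = 0.014). The call of HIF1A was lost in 7 of 15 alternatives. The list median of 24 genes was -0.09. Among 30 genes of mechanical sensing and YAP signalling 5 rose and 1 fell. PIEZO2, the stretch-gated channel of touch, was at 1.75, 1.64 and 0.675 in NS and 13.3, 14.8 and 13.1 in HS (log2 fold change 2.68 with SE 0.39, limma adjusted p = 0.00334), and ITGA11, a collagen-binding integrin, at 3.04, 2.07 and 3.15 in NS and 58.9, 40.7 and 41.02 in HS (log2 fold change 3.66 with SE 0.35, limma adjusted p = 0.000748). The YAP targets CCN1 and CCN2 overlapped (0.11, limma adjusted p = 0.899, and -0.04, limma adjusted p = 0.958). Of this list 3 genes rose without NS replicate 2. Immediate-early genes and genes of the respiratory chain held 0 DEGs by limma, with medians of -0.47 (17 genes, 4 with an unadjusted p under 0.05) and -0.12 (23 genes, 2 with an unadjusted p under 0.05).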

How the data were processed

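Total mRNA of full thickness ear was enriched with poly-T beads, made into libraries with a SMARTER mRNA-Seq Library Prep kit and sequenced on a NovaSeq instrument. The authors deposited FPKM per gene, and the aligner, the counter and the genome build are not given in the sources used here. The deposited FPKM of each library were whole multiples of the worth of 1 read (100% of values, within 0.05), after scaling by size factors, so depths were recovered from them. The study's own comparisons used DESeq2 and are not used here.

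Genes whose FPKM averaged 1 or more over the 12 samples were fitted as log2(FPKM + 1) on group in limma 3.58.1 (R 4.3.3) with a mean-variance trend, and p-values were Benjamini-Hochberg adjusted over 13287 genes. The fit was checked on simulated data. A pseudocount understates the change of low genes. Of the tested genes 9450 had a symbol, 128 were named from their description and 3709, with 117 DEGs, had no name and entered no list. The members and lists were chosen with earlier results of these data known. Named were the 12 largest DEGs in each direction, and in each list its defining genes and up to 6 others with the smallest p. EPHA3, NOX4, P3H2, SERPINE2, WNT16 and the genes under other observations were picked after their values were seen. Alternatives were another pseudocount (0.1), no filter, an average FPKM of 5 or more, total-read scaling, quantile normalization, limma voom on recovered reads, only NS and HS, no trend, a replicate block and leaving out each sample. Some items of these lists are not reported here.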

Additional observations from a re-analysis of the deposited data

How the results depend on the processing

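The count of DEGs depended on the scaling, the filter and single libraries. After rescaling to total reads 311 genes were higher and 749 lower, as against 469 and 196, and without a filter on low values 129 were lower. With 1 sample left out, 325 to 437 genes were higher and 55 to 216 lower, with 55 lower when NS replicate 1 was left out, 74 for HS replicate 1, 83 for HS replicate 2 and 109 for HS replicate 3. Replicate numbers are shared by the groups, but the deviations of same-numbered NS and HS samples correlated at -0.0405, -0.214 and 0.0877, so the numbers did not pair the samples, and with the replicate block 422 genes were higher and 157 lower. The other counts were 498 and 202 with a pseudocount of 0.1, 387 and 139 at an average FPKM of 5 or more, 467 and 204 after quantile normalization, 508 and 172 with voom, 465 and 234 with only NS and HS in the fit and 469 and 193 without the trend. Of 540 named genes, DEGs and others together, 34 lost their call after rescaling, 38 without the filter, 15 with voom and 41 to 67 with a sample left out. Only a DEG can lose its call, and the lists held 191 DEGs in all, so 540 is not the base of these losses. After rescaling 79 named genes gained a call. None of these genes changed sign while called in any of the 15 alternatives, which was unlikely from the outset for changes of more than 1 on the log2 scale. Genes near an FPKM of 1 rest on few reads, and the cause of the lost calls was not tested.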

Other observations

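These lists were put together after the values had been seen, so they are descriptions. Lysosomal hydrolases and membrane proteins break down matrix and other cargo taken up by cells. Of 32 tested genes 9 rose and 0 fell, as against 3.53% and 1.48% of all tested genes. In 26 of them all HS samples lay above all NS samples, as against 18% of all tested genes. The median log2 fold change was 0.75, and 0.40 after rescaling to total reads, where 2 genes were called higher. Of 9 genes of the insulin-like growth factor axis, 4 rose and 0 fell (median 1.00). IGF1, its main ligand in tissue repair, was at 4.23, 6.84 and 3.38 in NS and 72.5, 53.97 and 68 in HS (log2 fold change 3.53 with SE 0.35, limma adjusted p = 0.000842). Proline, serine and glycine supply collagen synthesis, and of 14 genes that make them 2 rose, with a median of -0.02. PYCR1, the last enzyme of proline synthesis, was at 9.92, 5.34 and 6.76 in NS and 33.2, 41.5 and 47.8 in HS (log2 fold change 2.35 with SE 0.27, limma adjusted p = 0.00127).

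Of 17 genes best known from the growth cones and cytoskeleton of neurons 9 rose and 2 fell, with a median of 1.16, and 6 rose after rescaling to total reads. BASP1, a partner of GAP43 at the membrane, was at 35.7, 31.1 and 23.6 in NS and 63.9, 72.9 and 66.3 in HS (log2 fold change 1.16 with SE 0.19, limma adjusted p = 0.00555). DPYSL3, which binds tubulin in growth cones, was at 20.6, 16.9 and 30.8 in NS and 114, 57.3 and 56.7 in HS (log2 fold change 1.66 with SE 0.31, limma adjusted p = 0.0106). MAPT, the microtubule protein tau, was at 8.97, 5.99 and 6.22 in NS and 1.82, 2.77 and 2.69 in HS (log2 fold change -1.23 with SE 0.27, limma adjusted p = 0.0225). The rising genes are also made by other cells, and which cells made them was not tested.

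Of 14 genes of steroid conversion and glucocorticoid response 1 rose and 4 fell, with a median of -0.69. HSD11B1, which regenerates active glucocorticoid, was at 10.3, 11.8 and 10.1 in NS and 1.63, 3.51 and 3.501 in HS (log2 fold change -1.64 with SE 0.28, limma adjusted p = 0.00698). HSD11B2, which inactivates it, was at 0.622, 0.577 and 0.443 in NS and 5.24, 6.61 and 4.902 in HS (log2 fold change 2.08 with SE 0.30, limma adjusted p = 0.00282). FKBP5, a target of the glucocorticoid receptor, was at 42.01, 38.8 and 25.9 in NS and 6.83, 7.97 and 10.6 in HS (log2 fold change -1.94 with SE 0.46, limma adjusted p = 0.0278). The pair of enzymes thus changed in opposite directions, and every HS value lay outside the range of NS in both. The others that fell were the steroid enzyme HSD17B2 and ZBTB16. Responsive genes did not move as 1 group: PER1, TSC22D3 and KLF15 were lower in all HS samples without passing. SGK1 (-0.11, limma adjusted p = 0.908), DUSP1 (-0.35, limma adjusted p = 0.429), CRISPLD2, ERRFI1 and KLF9 overlapped between groups.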
